A study of Mus musculus with 24 samples.

Results

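The kidney of transgenic mice was compared with aorta, brain, heart, liver, lung, spleen and stomach by bulk RNA sequencing. Its members are the 3 libraries whose titles name kidney, out of 24 libraries in all, and each of the 7 other tissues also has 3. Every animal carried SENCR-BAC, a bacterial artificial chromosome bearing the human SENCR locus, which gives a long non-coding RNA of vascular cells. The labels give no strain, age or sex, name no other allele and no animals without the transgene, and give no treatment. All library names carry the tag SR-KI, whose meaning was not established here. The series is described as biological triplicates, but nothing says which libraries share an animal, so p-values measure the spread between these libraries.

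A kidney is built from nephrons, in which blood is filtered at the glomerulus and the filtrate is then worked on by a chain of tubule segments. The proximal tubule takes back most solutes and makes glucose and creatine precursors, the thick ascending limb reabsorbs sodium, potassium and chloride, and the distal nephron sets the final salt and water balance. This transport is driven by the sodium-potassium pump and paid for by mitochondrial respiration. The organ grows from intermediate mesoderm at the back of the trunk, under PAX2, PAX8, SALL1 and the HOX genes, which record position along the body axis and several of which stay on in the adult.

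The values are FPKM, which scale a gene's reads by its length and by all reads assigned in the library. Mouse reads were counted on a human genome build, so a gene's FPKM also depends on how much of its sequence the species share. For this reason each gene's level was set against its own level in other tissues. Low values were not limited to tissue-restricted genes. Beta-actin, ACTB, a cytoskeletal gene that every cell uses, was at 1.66, 1.72 and 1.59 FPKM in kidney and was listed at 0 in all 3 liver libraries, and the albumin gene ALB was listed at 0 in 2 of the 3. A value at or near 0 in these files therefore does not show that a gene was not expressed. The 3 kidney libraries held 302980, 293331 and 317146 assigned reads, within the range of 177909 to 613544 over all 24 libraries. A gene listed at 0 could still have had up to 3 reads' worth of RNA in a library, a limit that covers counting error only. Over the 4260 genes tested below, log2(FPKM + 1) of paired kidney replicates correlated at 0.956 to 0.957 (Pearson). Over genes above a minimum read number, their reads differed by more than sampling noise (chi-square per degree of freedom 2.76 to 3). Genes are not independent replicates, so these coefficients are descriptions.

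The comparison starts from 4 kidney genes, and a stretch of the mouse promoter of each is shown because they are the genes by which the label was checked. The sequences run from base 250 to base 101 before the RefSeq gene start on GRCm38.p6, 150 bases each. The first is Kcnj1 at chr9:32393735-32393884 (plus strand), the second Slc12a1 at chr2:125152350-125152499 (plus), the third Pax8 at chr2:24475700-24475849 (minus) and the last Hoxd10 at chr2:74691641-74691790 (plus).
Kcnj1: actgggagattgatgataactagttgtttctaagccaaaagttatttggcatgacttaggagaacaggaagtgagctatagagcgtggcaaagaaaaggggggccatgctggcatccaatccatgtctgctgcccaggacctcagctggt
Slc12a1: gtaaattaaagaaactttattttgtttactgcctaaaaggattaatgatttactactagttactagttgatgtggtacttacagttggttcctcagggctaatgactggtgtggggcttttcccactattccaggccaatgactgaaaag
Pax8: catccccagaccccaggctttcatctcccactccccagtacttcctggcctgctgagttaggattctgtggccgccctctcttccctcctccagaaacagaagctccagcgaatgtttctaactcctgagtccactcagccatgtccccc
Hoxd10: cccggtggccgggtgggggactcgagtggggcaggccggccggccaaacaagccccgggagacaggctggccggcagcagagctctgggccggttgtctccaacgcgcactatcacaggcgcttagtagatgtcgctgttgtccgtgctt
The 4 stretches differ in composition. The Hoxd10 stretch is 68% G and C with 13 CpG pairs, the Pax8 stretch 57.3% with 2, the Kcnj1 stretch 48% with 1, and the Slc12a1 stretch 37.3% with none.

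All 4 genes were highest in the libraries labelled kidney. KCNJ1, the apical potassium channel of the thick limb and collecting duct, was at 1933, 954 and 1606 FPKM in kidney replicates 1, 2 and 3. Outside kidney it was seen in 3 libraries, at 2.36 and 0.752 FPKM in lung replicates 1 and 3 and at 0.842 in aorta replicate 2. The difference from the mean of the 7 other tissue means was 10.32 on the log2(FPKM + 1) scale (SE 0.27). SLC12A1, the sodium-potassium-chloride cotransporter of the thick limb, was at 20.3, 23.5 and 21.7 FPKM and was listed at 0 in all 21 other libraries. The transcription factor PAX8 was at 20.1, 25.4 and 15.6 FPKM, and its highest value elsewhere was 0.767 in brain replicate 2. The homeobox gene HOXD10 was at 365, 283 and 326 FPKM, and its highest value elsewhere was 6.75, in an aorta library. KCNJ1, SLC12A1 and PAX8 reached the filter for testing, 1 FPKM in 3 libraries, only through kidney, so no p-value is given for them. Kidney libraries and other libraries did not overlap for any of the 4, as the plot of elevated genes by library shows. That plot holds genes chosen for their kidney gap, so the separation there follows in part from the choice. The share of all tested genes without such overlap is not given here.

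**Figure D1:**
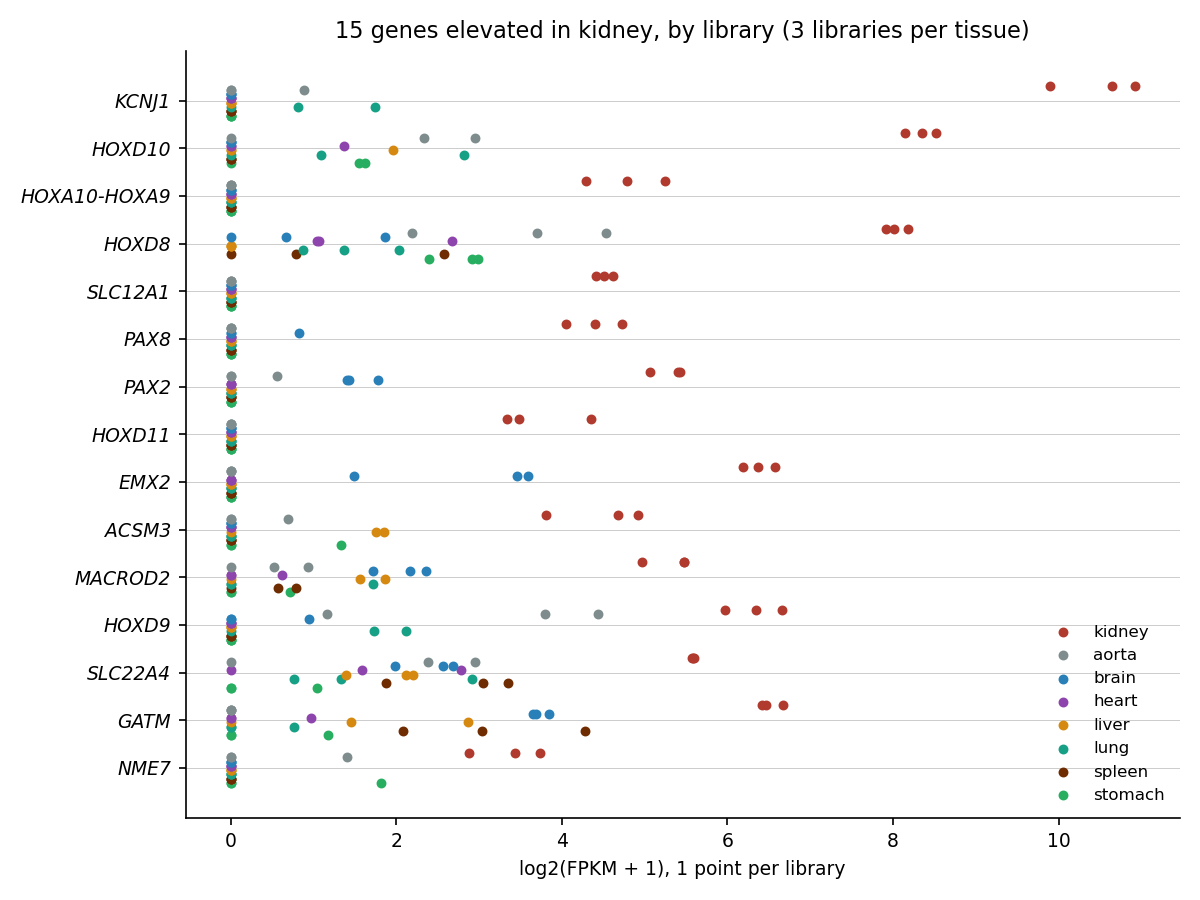
Each point is 1 library, placed by log2(FPKM + 1) on the horizontal axis, for the 15 genes with the widest gap between the kidney mean and the next tissue mean; colours mark the 8 tissues, 3 libraries each. The kidney points lie to the right of all others in every row, from KCNJ1 (954 to 1933 FPKM in kidney, at most 2.36 elsewhere) down to NME7 (6.36 to 12.3 FPKM in kidney, at most 2.52 elsewhere).

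Genes were tested if 3 or more libraries reached 1 FPKM, which 4260 did. Of these, 416 (9.77%) were called higher in kidney than the mean of the other 7 tissues and 346 (8.12%) lower. These shares are the background for the counts of called genes in each list below. Calls required limma's adjusted p to be under 0.05 and kidney to differ from the reference by 1 or more in log2(FPKM + 1). The median difference over all genes tested was -0.05. In bulk tissue, fewer cells of a type and less RNA per cell cannot be told apart. A total of 106 genes passed the filter only through the kidney libraries, so a higher value in kidney follows for those from the filter itself. A stricter group was called higher than each of the other 7 tissues, and 72 genes (1.69%) met this. They are named kidney-elevated here. Another 5 genes (0.117%) were called lower than each of the 7. Of the 416 higher genes, 277 had their highest mean in kidney, and for the other 139 it lay elsewhere, most often in liver (46 genes), brain (29) or heart (18).

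The 72 kidney-elevated genes included 12 HOX genes and 7 solute carriers, described below. Listed at 0 in all 21 libraries outside kidney were 5 of them: SLC12A1, HOXD11, TMEM174, the calcium-sensing receptor gene CASR, and HOXA10-HOXA9. The last is a readthrough transcript that shares exons with HOXA10 and HOXA9, so its reads are uncertain. The next tissue was brain for 17 of the 72, aorta for 15, stomach for 11 and lung for 10, but heart for only 1. GATM, the enzyme that makes the creatine precursor guanidinoacetate, was at 100.7, 84.2 and 87.4 FPKM, against 12.3 ± 0.952 in brain (SD, n = 3; difference from the mean of the others 5.19, SE 0.43, limma adjusted p = 1.19e-08). Glycerol kinase GK was at 83.4, 103 and 109 FPKM against 16.5 in liver. The organic cation and ergothioneine transporter SLC22A4 was at 46.4, 46.9 and 47.3 FPKM against at most 9.21 in any other library. The mitochondrial enzyme ACSM3, which activates medium-chain fatty acids, was at 13, 24.5 and 29.2 FPKM and reached 2.62 in a liver library. MACROD2, a hydrolase of ADP-ribose marks, was at 30.2, 43.6 and 43.5 FPKM and reached 4.12 in a brain library.

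Most tested genes of the thick limb and distal tubule were higher in kidney. Of 26 genes listed for the thick ascending limb and distal convoluted tubule, 10 were analysed here and 9 tested, 4 of them through kidney alone. Higher were 8 and lower none, with a median difference of 2.63 over the tested members and 2.34 over all 10, against -0.05 over all genes. Beside KCNJ1 and SLC12A1 they included CASR, CALB1, WNK4, CNNM2 and ATP1B1. The calcium-binding protein gene CALB1, known from the distal convoluted tubule, was at 4.76, 8.62 and 13.6 FPKM, and brain, where it marks neurons, overlapped it with up to 8.60. CASR was at 3.02, 3.36 and 1.55 FPKM. WNK4, a kinase that sets salt reabsorption, was at 4.05, 2.39 and 4.41 FPKM, above its highest value elsewhere of 1.15. CNNM2, a magnesium-handling membrane protein, was at 4.48, 3.29 and 4.82 FPKM and reached 2.75 elsewhere. The kinase gene STK39 was not called (difference -0.08, limma adjusted p = 0.846). The calls of CASR, WNK4 and CNNM2 ended with a pseudocount of 5.

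Fewer listed genes of the proximal tubule could be tested. Of 42 listed genes 10 were analysed and 5 tested, 1 of them through kidney alone. Of these 4 were higher and none lower, with a median difference of 2.02 over those tested but 0.31 over all 10. SLC4A4, the basolateral sodium-bicarbonate cotransporter, was at 64.5, 58.0 and 66.5 FPKM against 9.74 in brain, the next tissue (difference 4.58, SE 0.25, limma adjusted p = 2.12e-11). GATM is given above. The membrane peptidase gene MME was at 2.88, 7.44 and 0.275 FPKM, so its lowest kidney library lay below all 3 lung libraries (1.45 to 2.58). Its call ended without kidney replicate 2 and with a pseudocount of 5. Several defining markers were listed at or near 0 in kidney, as ACTB was, so their levels in the tubule cannot be read from these values. PCK1, the gluconeogenic enzyme gene, and ANPEP, a brush-border peptidase gene, were listed at 0 in all 3 kidney libraries. The water channel gene AQP1 was at 0, 1.13 and 1.05 FPKM.

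Few collecting duct and glomerulus genes could be tested, and low values here carry the limit given for ACTB. Of 26 collecting duct genes 4 were analysed and 1 tested, the mineralocorticoid receptor gene NR3C2. It was at 0.738, 3.43 and 3.52 FPKM in kidney and was not called (difference -0.33, limma adjusted p = 0.492). HSD11B2, the enzyme that shields this receptor from glucocorticoids, had a value only in kidney replicate 2, at 1.64 FPKM. AVPR2, the vasopressin receptor gene, was listed at 0 in kidney. Of 21 podocyte and glomerulus genes 12 were analysed and 6 tested, and none was called in either direction (median difference 0.28 over those tested). WT1, the podocyte transcription factor, was at 0, 3.49 and 4.03 FPKM, and its difference of 0.99 fell just short of the minimum of 1 (limma adjusted p = 0.034). The podocyte regulators TCF21 and FOXC2 were listed at 0 in all 3 kidney libraries. The podocyte list summed to 30.9 to 39.3 FPKM per kidney library and to 10.6 to 201 per library elsewhere.

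**Figure D2:**
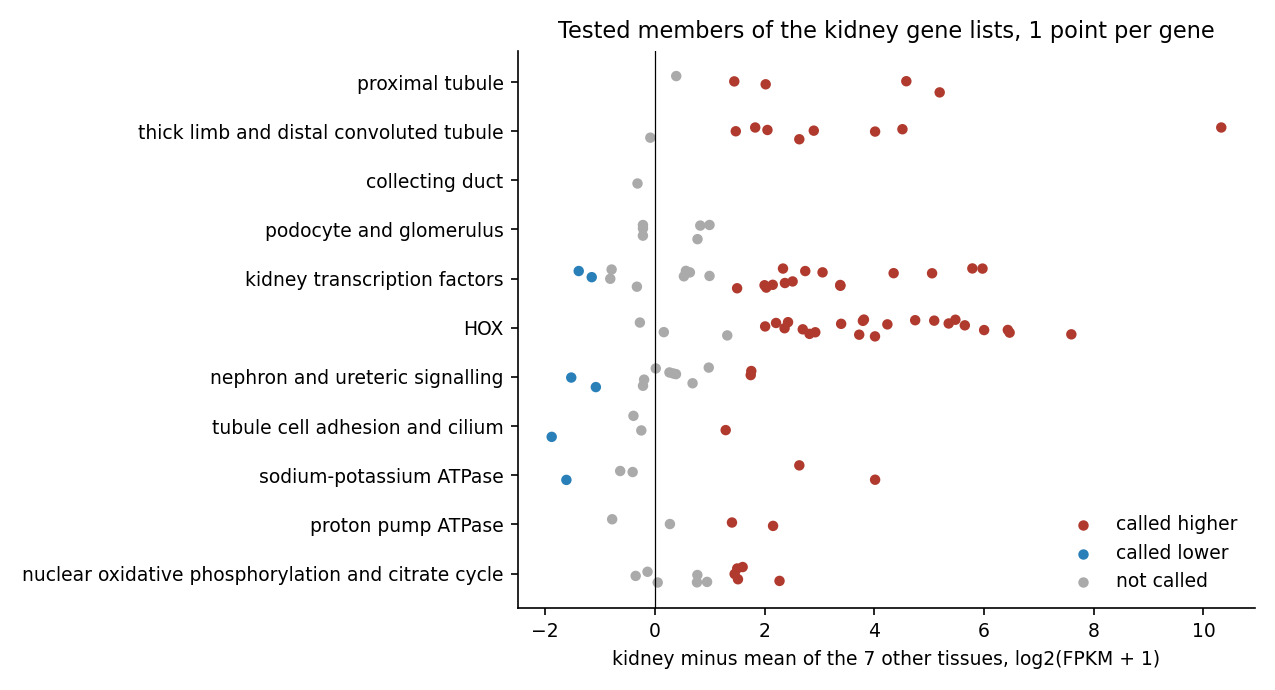
Each point is 1 tested gene of a kidney gene list (rows), placed by its difference between kidney and the mean of the 7 other tissues in log2(FPKM + 1); red points were called higher, blue lower and grey neither. HOX genes lie furthest right as a list (22 of 25 higher), the thick limb list has KCNJ1 at 10.32, and the podocyte and collecting duct lists hold no called gene.

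Genes of the pumps behind this transport were higher in part. ATP1B1, the beta subunit of the sodium-potassium pump, was kidney-elevated at 8217, 7513 and 7505 FPKM, close together and above the brain mean of 3549, the next highest (difference 4.01, SE 0.26, limma adjusted p = 3.94e-10). Of 4 tested genes of the proton pump, ATP6V1H and ATP6V1G1 were higher. ATP6V1H was at 76.6, 78.0 and 76.7 FPKM, with liver at 62.7 and stomach at 61.0. ATP6V1G1 was at 27, 19.95 and 36.8 FPKM (difference 2.15, limma adjusted p = 0.0117), and its call ended without kidney replicate 3 and with a pseudocount of 0.1.

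Some nuclear genes of respiration and the citrate cycle were higher in kidney, and for each of those called the heart mean was higher still. Of 36 listed, 25 were analysed and 11 tested, with 5 higher and none lower (median difference 0.95 over those tested, -0.06 over the 25). ATP synthase beta subunit ATP5F1B was at 1528, 1803 and 1692 FPKM in kidney and 2134 in heart. NDUFS1 of complex I was at 66.3, 76.5 and 76.3 FPKM in kidney and 114 in heart. OGDH, of the oxoglutarate dehydrogenase complex, averaged 227 FPKM in kidney and 558 in heart, IDH2 31.3 and 81.8, and IDH3G 98.8 and 119. Heart was called higher than kidney for OGDH and IDH2, and neither tissue was called above the other for ATP5F1B, NDUFS1 and IDH3G. Of the regulators of this programme, ESRRA and PPARGC1A were likewise higher in kidney (1.5 and 2.33) with heart alongside. ESRRA averaged 154 FPKM in kidney and 157 in heart, and PPARGC1A 19.8 and 24.5.

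Transcription factors of kidney development were among the clearest differences. Of 43 listed, 31 were analysed and 24 tested, 2 of them through kidney alone. There were 15 higher and 2 lower, with a median difference of 2.09 over those tested and 1.5 over all 31. PAX2, the partner of PAX8 in the nephric lineage, was at 32.5, 42.2 and 41.2 FPKM and at most 2.44 in any other library (difference 5.05, SE 0.15, limma adjusted p = 4.97e-16). EMX2, a homeobox gene of the ureteric bud and of the cerebral cortex, was at 72.0, 81.7 and 94.3 FPKM. It averaged 7.59 in brain and was listed at 0 in the other 6 tissues. POU3F3, which patterns the thick limb and distal tubule and is also a neural factor, was at 120, 82.5 and 96.8 FPKM, with brain next at 41.7. PAX8, PAX2, EMX2 and POU3F3 all ranked kidney first and brain next, although for PAX8 the brain value was 2 reads in a single library. SALL1, a zinc finger factor needed for ureteric budding, was at 33.8, 28.6 and 22.6 FPKM with liver next at 12.3. OSR2, BNC2 and TFAP2B were kidney-elevated as well, at means of 12.8, 7.77 and 3.94 FPKM.

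Other members of that list were higher than the mean of the other tissues but not first. MECOM, a zinc finger factor of the nephron, was at 62.0, 67.5 and 56.8 FPKM in kidney against 206 in stomach. ESRRG, an orphan nuclear receptor, was at 36.9, 34.6 and 23.2 FPKM against 98.4 in stomach, and TBX2 at 21.9, 19.98 and 35.2 against 105 in lung. In each of these the named tissue was called higher than kidney. IRX3, of the proximal and intermediate tubule, was at 24.6, 13.3 and 35.7 FPKM and overlapped lung, and TFAP2A at 7.88, 4.45 and 8.89 overlapped stomach. OSR1, an early progenitor gene known to be silenced as the kidney matures, was called lower, at 0, 3.07 and 0.945 FPKM against 101 in aorta (-1.39, limma adjusted p = 0.0243). Its call ended when aorta or lung was left out of the reference. It also ended without kidney replicate 1 or 3, with a pseudocount of 0.1 or 5, with TPM scaling and with voom on the recovered reads. The TFAP2A and TFAP2B calls ended with a pseudocount of 5. LHX1, at 0, 1.82 and 3.36 FPKM, was below the filter, and HNF4A was listed at 0 in kidney.

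HOX genes gave more higher genes than any other list. They lie in 4 chromosomal clusters, A to D, and a higher group number means a more posterior domain in the embryo. Of 39 HOX genes listed, 30 were analysed and 25 tested, 3 of them through kidney alone, and 22 were higher and none lower. The median difference was 3.79 over those tested and 3.16 over all 30. Of the tested genes 12 were kidney-elevated: HOXA9, HOXA10, HOXA11, HOXB8, HOXB9, HOXC9, HOXC10, HOXD4, HOXD8, HOXD9, HOXD10 and HOXD11. HOXD8 was at 258, 239 and 289 FPKM against 12.5 in aorta, and HOXC10 at 159, 133 and 157 against 40.3 in aorta and 0 in the other 6 tissues. HOXB9 was at 106, 111 and 116 FPKM against 27.3 in aorta. HOXD11, whose loss together with HOXA11 is known to stunt the kidney, was at 19.4, 9.14 and 10.1 FPKM.

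Aorta came nearest to kidney, and how near differed along the clusters. Of 12 tested genes of groups 4 to 7, 1 was called higher in kidney than in aorta, HOXD4. It passed the filter only through kidney (2.34, 5.46 and 2.8 FPKM), and its call against the mean of the others ended with a pseudocount of 5. Of 12 tested genes of groups 8 to 11, 11 were, the other being HOXC8. Among the 11, HOXA10 and HOXD11 also passed the filter only through kidney. The 2 sets of genes share the same 6 libraries. No share over all tested genes is given for kidney against aorta alone, so the 2 counts stand only beside each other. In the A cluster, HOXA5 averaged 172 FPKM in kidney, 392 in aorta and 719 in lung, while HOXA9 averaged 24.5 in kidney, 6.49 in aorta and 0 in lung. HOXA2, the most anterior gene tested, was called lower than aorta (6.51 against 77.1 FPKM, difference -3.38). In the C cluster, HOXC6 averaged 172 in kidney and 128 in aorta, and HOXC9 73.1 and 29.6. The D cluster gave the widest differences from aorta, 6.57 for HOXD10, 4.56 for HOXD8 and 3.19 for HOXD9. Brain, heart, liver and spleen were at 0 or near it for most genes of groups 9 to 11, as the map of HOX genes by tissue shows. The count of higher HOX genes was 20 to 24 in each alternative tried and the count of lower ones 0.

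**Figure D3:**
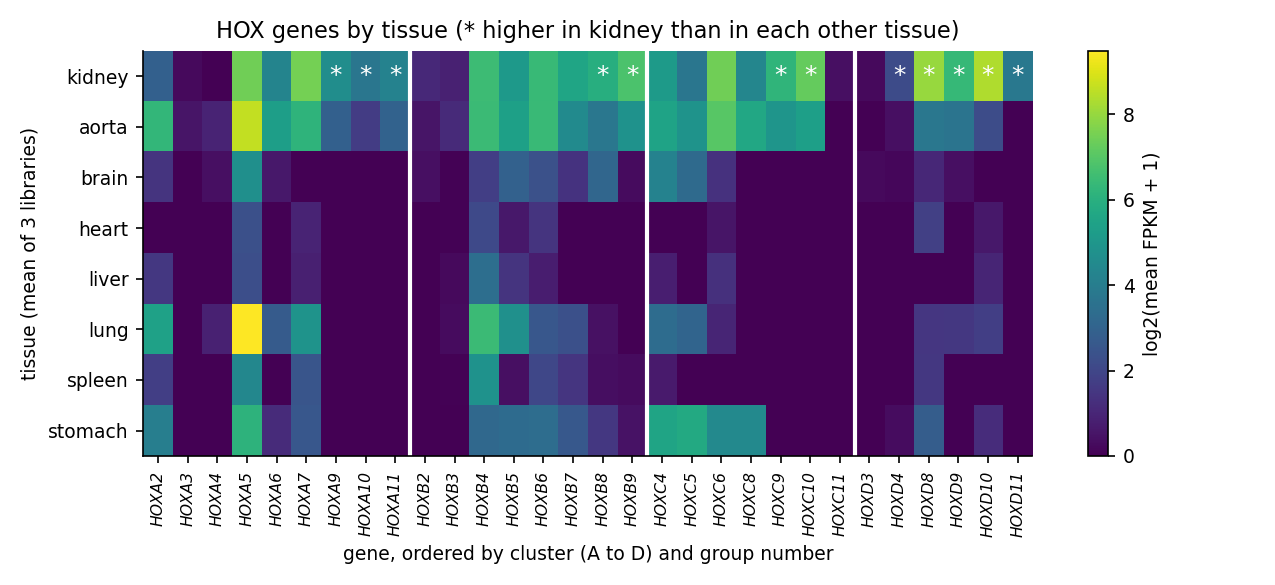
Rows are the 8 tissues (mean of 3 libraries) and columns the 30 HOX genes analysed, in order of cluster (A to D, white lines between them) and group number; colour is log2(mean FPKM + 1), and an asterisk marks a gene called higher in kidney than in each other tissue. The kidney and aorta rows are bright through the middle of each cluster, lung and stomach are bright mainly up to groups 6 to 8, and the asterisks stand at groups 8 to 11 and at HOXD4.

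The promoters of the kidney-elevated genes were searched for 4 kidney-related motifs on both strands over 250 bases before to 50 after the RefSeq start. Of the 72 genes 57 matched the promoter table by symbol, ignoring case. The short HNF1 core GTTAAT was in 4 of the 57 (7.018%), against 5.697% of 3212 promoters of tested genes and 8.244% of 27025 promoters in all. The full palindromic HNF1 site, which contains this core, the estrogen-related receptor site TCAAGGTCA and the HNF4 site CAAAGTCCA were in none of the 57, and in 0.011%, 0.466% and 0.555% of all promoters. So the core was no more common here than in promoters at large. The 4 matches are shown in capitals on the gene's strand, where ATTAAC is GTTAAT read from the other strand. They lie at chr6:52227542-52227587 (minus), chr6:52240866-52240911 (minus), chr2:74704365-74704395 (plus) and chr1:19211826-19211871 (plus) in GRCm38.p6.
Hoxa9: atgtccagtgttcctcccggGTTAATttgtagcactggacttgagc
Hoxa10: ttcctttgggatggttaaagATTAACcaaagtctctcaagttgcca
Hoxd8: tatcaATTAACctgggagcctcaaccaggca
Tfap2b: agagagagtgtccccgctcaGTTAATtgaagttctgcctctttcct
The match began 197, 37, 245 and 208 bases before the start of Hoxa9, Hoxa10, Hoxd8 and Tfap2b. Promoters of the kidney-elevated genes had a median of 60.7% G and C and 21 CpG pairs, tested genes 63.3% and 24, and all promoters 52.7% and 7.

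Solute carriers are the largest family of membrane transporters. Of 127 analysed, 57 were tested, 6 of them through kidney alone. There were 14 higher and 2 lower, beside 9.77% higher and 8.12% lower over all genes tested, and the median difference was 0.08 against -0.05 over all genes. The kidney-elevated ones were SLC12A1, SLC22A4, SLC4A4, SLC5A3, SLC6A6, SLC7A8 and SLCO3A1. SLC7A8, which carries neutral amino acids across the basolateral membrane, was at 82.1, 82.9 and 93.8 FPKM against 31.6 in stomach. The taurine transporter SLC6A6 was at 152, 178 and 144 FPKM against at most 76.7 in any other library. SLC5A3, the myo-inositol transporter of osmotically stressed cells, was at 2.87, 4.31 and 9.21 FPKM, and its call ended with a pseudocount of 5. The creatine transporter SLC6A8 was at 27, 23.2 and 36.5 FPKM and was called higher than 6 tissues but not heart (11.7). Outside this family, the endosomal chloride-proton exchanger CLCN5, mutated in Dent disease, was at 26.1, 23.5 and 20.9 FPKM against at most 5.58 elsewhere. These last genes, SLC6A8 and CLCN5 among them, were chosen after their values were seen.

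Liver and brain were the tissues that most often kept a gene from being kidney-elevated, and their order depended on the scaling. Called higher than 6 tissues but not than liver were 37 genes, against 26 for brain, 7 each for aorta, lung, spleen and stomach, and 3 for heart. Under median-ratio scaling liver had 18 such genes and brain 28, and under TPM scaling each had 34. With no minimum difference liver had 67 and brain 31, and under quantile normalization 30 and 17. The members of the 37 named here were chosen after their values were seen and do not stand for the whole group. ASS1, which makes argininosuccinate in arginine synthesis, was at 26.6, 52.2 and 37.4 FPKM in kidney, 54.8 ± 25.9 in liver and at most 0.805 on average elsewhere (SD, n = 3). The propionyl-CoA carboxylase subunits PCCA and PCCB averaged 58.7 and 251 FPKM in kidney and 53.6 and 259 in liver. ALDH6A1, of valine breakdown, was at 426, 477 and 464 FPKM against 319 in liver and 110 in stomach. A1CF, an RNA-binding cofactor of apolipoprotein B editing, was at 10.4, 10.2 and 11.2 FPKM in kidney, 15.6 in liver and 0 in the other 6 tissues. Pyruvate carboxylase PC averaged 20.04 in kidney and 24.6 in liver. For some, liver was called higher than kidney: AHCY (39.7 against 331 FPKM), GLUD1 (345 against 1369.8), SARDH (7.30 against 23.7) and SCP2 (15.4 against 522). The call of SCP2 against the mean of the others ended without kidney replicate 2, with a pseudocount of 0.1 or 5, and with brain or lung left out of the reference. That of SARDH ended with a pseudocount of 5.

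**Figure D4:**
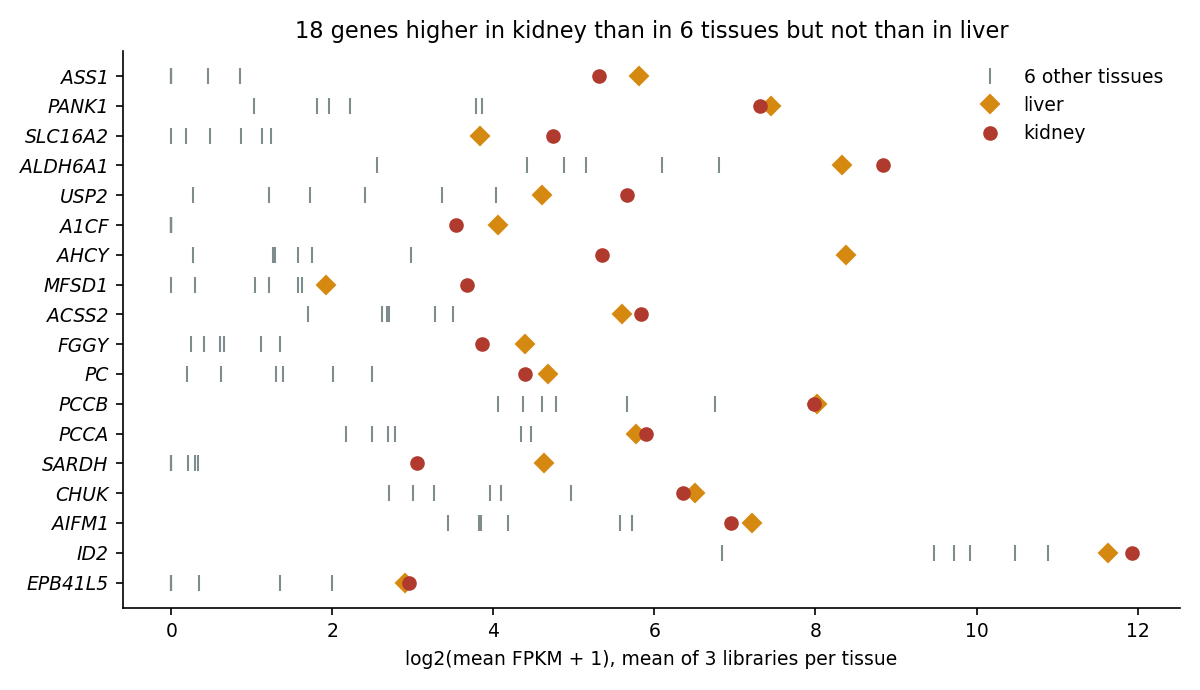
The 18 genes with the largest kidney differences among the 37 called higher in kidney than in 6 tissues but not than in liver, placed by log2(mean FPKM + 1); red circles are kidney, orange diamonds liver and grey ticks the 6 other tissues, each a mean of 3 libraries. Kidney and liver lie close for PCCA, PCCB and PANK1, while AHCY and SARDH sit further right in liver.

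The 26 genes called higher than 6 tissues but not than brain included UGT8, TRPC1 and PHYHIPL. UGT8, which makes galactosylceramide, a lipid of both myelin and renal tubules, was at 9.59, 11.2 and 9.46 FPKM against 6.07 in brain, and at most 0.0852 on average elsewhere. The cation channel gene TRPC1 was at 10.6, 6 and 17.6 FPKM against 6.8 in brain. PHYHIPL was at 52.7, 39.1 and 49.7 FPKM against 258 in brain, which was called higher than kidney. Of 17 neuron genes 14 were listed at 0 in all 3 kidney libraries, SNAP25 and SYT1 among them, beside 3322 of all 7493 genes. The limit given for ACTB holds for these as well. Across the 4260 genes tested, the kidney mean correlated most with stomach (r = 0.901) and liver (0.893) and least with brain (0.723), a description over genes that share libraries and mapping.

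Of the 346 lower genes, 118 were listed at 0 in all 3 kidney libraries, and 86 had their lowest mean in kidney. The highest mean of a lower gene was most often in brain (148 genes), aorta (58) or spleen (47). The reference holds brain, and 261 genes were lower with brain left out of it. The 5 genes lower than in each other tissue were NRN1, UNC119, OXR1, CELF2 and PARP6. NRN1, a small anchored protein that promotes neurite growth, was at 0, 1.15 and 2.12 FPKM in kidney, against 4349 in liver, 1072 in brain and 15 in spleen, the lowest of the others (difference -6.64, SE 0.35, limma adjusted p = 1.54e-11). CELF2, a splicing regulator, was at 9.79, 11.7 and 11 FPKM against 24.8 in liver and 163 in brain. UNC119, a chaperone of lipid-modified proteins, was at 1.79, 1.85 and 3.42 FPKM against 10.01 to 63.3 in the others. PARP6 was at 34.0, 38.1 and 57.1 FPKM against 87.6 to 525, and OXR1, an oxidative stress gene, averaged 0.685 against 3.68 to 18.4. With a pseudocount of 0.1 there were 10 such genes and with one of 5 there were 2.

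Markers of other cell types were mostly low, within the limit given for ACTB. Cardiomyocyte genes summed to at most 0.712 FPKM in a kidney library, with 5 of 11 tested called lower. Listed at 0 in all 3 kidney libraries were 9 of the 11, beside 3322 of all 7493 genes. Skeletal muscle genes were at 0 throughout, as were lung and gastric epithelial genes. Hepatocyte genes summed to 3.19 to 5.22 FPKM against up to 2460 in other libraries, and HAO1 and CPS1, abundant in liver, were at 0 and at most 0.477. Immune genes summed to 4.38 to 16 FPKM, mostly SPI1 (3.9, 6.05 and 15.8), which was called lower, a call that ended without kidney replicate 1, without spleen in the reference and with voom. Smooth muscle genes were lower in 4 of 6 tested, with ACTA2, ACTG2 and DES at 0. Of 4 tested endothelial genes 1 was called higher and none lower, with a median difference of -0.21 against -0.05 over all genes. FLI1, ERG and ENG were not called (-0.39, -0.24 and -0.17). TEK, the angiopoietin receptor gene, was called higher (3.16, 4.58 and 4.83 FPKM, difference 1.11, limma adjusted p = 0.00354), with lung at 17.2. That call ended with a pseudocount of 5, under median-ratio and quantile scaling and when brain, liver, spleen or stomach left the reference. Fibulin FBLN5 was the one higher matrix gene (134, 62.3 and 106 FPKM against 231 in aorta), and collagen COL1A1 was lower (-1.18). The COL1A1 call ended without kidney replicate 1, with a pseudocount of 0.1, with TPM scaling, with voom, and with aorta, lung or stomach left out of the reference.

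Signals of nephron formation were mixed. Of 31 genes 21 were analysed and 12 tested, with 2 higher and 2 lower, beside 9.77% higher and 8.12% lower over all genes tested. The median difference was 0.3 over those tested and -0.01 over the 21, against -0.05 over all genes. BMP4, a growth factor of the ureteric mesenchyme and of vessels, was at 218, 192 and 274 FPKM, below aorta (516) and lung (293) on average. FGF9 was at 6.66, 3.13 and 4.63 FPKM, alongside brain at 4.98. BMP2 and FGFR2 were called lower (-1.53 and -1.08), and each call ended without kidney replicate 1 or 3 and with a pseudocount of 5. The BMP2 call also ended with stomach left out of the reference. The FGFR2 call also ended with a pseudocount of 0.1, with TPM scaling, with voom, and with aorta, brain, liver or lung left out. Of the adhesion and cilium list, the epithelial splicing factor ESRP1 was called higher (6.11, 5.54 and 6.57 FPKM) although stomach was at 72.2, and CDH2, or N-cadherin, was listed at 0 and called lower (-1.88). The calls of FGF9, ESRP1 and CDH2 ended with a pseudocount of 5.

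KCNJ1 also stood apart by its position. In the mouse annotation (RefSeq, GRCm38.p6, chromosome 9) its protein-coding neighbours are Kcnj5 and Fli1, and SENCR lies antisense to FLI1. Kidney SENCR was at 78.9, 31.2 and 102 FPKM (difference 1.59, SE 0.45, limma adjusted p = 0.00945), and the call ended without kidney replicate 1 or 3. FLI1, an ETS factor of endothelium and blood, was at 165, 56.2 and 153 FPKM and was not called (-0.39, limma adjusted p = 0.509). For all 3 genes kidney replicate 2 was the lowest: its value was 0.539 times the mean of replicates 1 and 3 for KCNJ1, 0.353 times for FLI1 and 0.345 times for SENCR. SLC12A1, of the same tubule segment as KCNJ1, was highest in replicate 2, and over 218 higher genes with at least 20 FPKM the median ratio was 0.994. Of those 218, 66 were lowest in replicate 2 and 7 had a ratio at or below that of KCNJ1.

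The low value in replicate 2 was not limited to kidney. FLI1 was lowest in the library numbered 2 in 8 of 8 tissues and highest in number 1 in 7. SENCR was lowest in number 2 in 6 of 8 tissues, and ETS1, a further ETS gene of the locus, in 2 of 8. Of 1649 genes above 0 in every library, 2 were lowest in the same replicate number in all 8 tissues: FLI1 in number 2, and ATP5F1B in number 1. The labels do not say what a replicate number shares. The share of transgene reads in KCNJ1 and FLI1 was not tested. SENCR overlaps FLI1 on the other strand, and no source used here gives the strand setting of the counting, so their reads may be mixed. KCNJ1 was at 954 FPKM or more in each kidney library and at most 2.36 in any other. These values do not separate mouse reads from transgene reads.

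**Figure D5:**
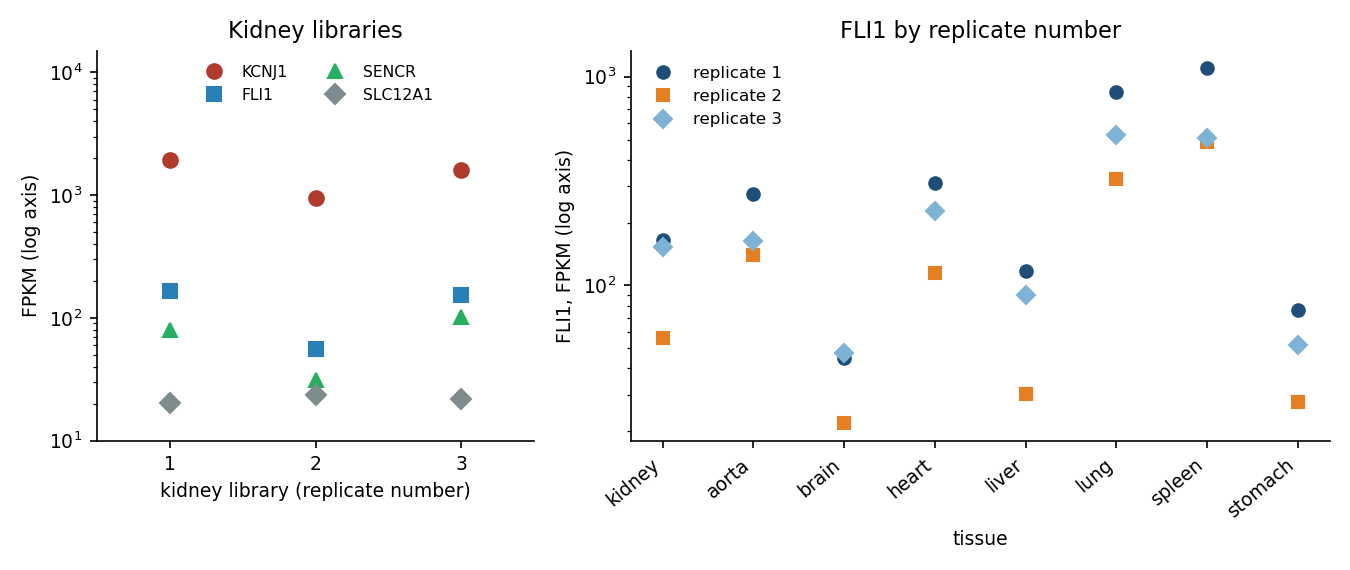
Left, FPKM (log axis) of KCNJ1, FLI1, SENCR and SLC12A1 in the 3 kidney libraries; right, FPKM of FLI1 (log axis) in each tissue, with 1 point per library and colour and shape for the replicate number. KCNJ1, FLI1 and SENCR dip in kidney replicate 2 while SLC12A1 does not (20.3, 23.5 and 21.7), and the FLI1 value of replicate 2 is the lowest in 8 of 8 tissues.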

How the data were processed

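Total RNA was extracted with TRIzol and sequenced after a VAHTS Universal V10 kit, per the labels' protocols. The tools fastp, HISAT2 and HTSeq and the human build GRCh38.p13 are named without versions in the submitters' processing notes. No source used here gives the annotation or strand setting. FPKM were deposited for 7493 genes with human symbols, of which 6936 (92.6%) matched a mouse symbol ignoring case.

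FPKM steps gave back whole reads for 7490 genes (99.96%, relative tolerance 1e-06), used for depth and for an added voom fit, which called 509 genes higher and 440 lower. In a gene seen in 1 library only, the recovered number is 1 by construction. With 3 reads as the limit of a 0, intervals cover counting error only.

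The tests used limma 3.58.1 (R 4.3.3) on log2(FPKM + 1), with a mean for each of 8 tissues, a trended variance prior and Benjamini-Hochberg adjustment over 4260 genes. On simulated data for kidney against the mean of the others (4007 genes), the fit found 29% of 100 genes with a 2-fold change and 98% of 100 with a 4-fold change, and called 8 unchanged genes. Apart from the set changes, each simulated gene had the same mean in every tissue and a fixed spread. Changed genes were drawn from the more abundant ones. These figures therefore do not cover genes of few reads or the differences between the real tissues. The labels do not say that a replicate number marks a shared animal or day, and the fit has no replicate block.

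The tissue, the gene lists and the motifs were chosen with earlier results of these data known. Named genes are the 4 markers, SENCR and FLI1, the 15 elevated genes with the largest gap, the lowest genes, the 8 largest differences each way, called members of the kidney lists, and up to 4 abundant members of each other list. Others were named after their values were seen, and some genes are not reported here. The 45 alternatives, 2 of them added after seeing the data (voom, and aorta replicates 1 and 3 left out together), are given in the closing section. Promoter sequences come from RefSeq (GRCm38.p6). Python 3.11.15, numpy 2.4.6, pandas 2.3.3 and matplotlib 3.10.9 were used.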

Additional observations from a re-analysis of the deposited data

How the results depend on the processing

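The counts of higher and lower genes moved by over 1.5 times with a pseudocount of 5 (251 higher and 126 lower) and with no minimum difference (720 and 733). Kidney-elevated genes numbered 47 with a pseudocount of 0.1. Genes lower than in each other tissue numbered 10 with a pseudocount of 0.1, 2 with 5, and 8 under quantile normalization and with no minimum difference. Leaving out each library in turn gave 370 to 425 higher, 301 to 358 lower, 57 to 72 elevated and 3 to 6 lowest genes, and the 3 came without spleen replicate 1 or 2. TPM and median-ratio scaling shifted the median gene by 0.125 and -0.14 and gave 554 and 339 higher and 427 and 399 lower. A replicate block gave 418 higher and 346 lower, with 77 elevated. In the check of pairing, the deviations of 21 same-numbered pairs with kidney correlated at -0.0231 to 0.0928, none over the 0.1 set for pairing, while 20 of 24 libraries correlated best with their own number, a hint from the data and not the design. Of 149 named genes called, 101 kept the call in every alternative. KIF5A, a neuronal kinesin called lower in kidney, reversed with brain left out of the reference (0.18, limma adjusted p = 0.779). The cause of these changes was not tested beyond each alternative's own construction. Depth limits what can be read from genes of a few reads. Some of their calls ended with a pseudocount of 5, as for CASR and WNK4, and others held, as for NME7 and OSR2.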

Other observations

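Some of the genes furthest below the other tissues are given here by their values, within the limit on low values stated for ACTB. TMSB10, an actin-binding peptide gene, was at 0, 6.76 and 0 FPKM in kidney against 391 in spleen and 178 in lung (difference -4.87, limma adjusted p = 6.57e-05). The intermediate filament gene VIM was at 0, 1.45 and 1.33 FPKM against 263 in aorta (-3.23), and the integrin subunit gene ITGB1 at 0.750, 0 and 0 against 105 in aorta (-3.18), both chosen after their values were seen. The transcription factor FOXP2 was at 1.16, 3.61 and 1.11 FPKM against 330 in aorta (-3.75). BCL11A, of lymphocytes and neurons, was at 0.660, 0.341 and 0 against 218 in spleen and 123 in brain (-3.35). Of 44 tested cytosolic ribosomal protein genes 8 were lower and none higher, beside 8.12% lower and 9.77% higher over all genes tested, with a median difference of -0.46 against -0.05. RPL12 was at 0, 0 and 4.54 FPKM against 379 in spleen, a call that ended without kidney replicate 1 or 2.

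Immediate early genes differed widely between the kidney libraries. JUNB was at 16.5, 5.11 and 92.8 FPKM, JUN at 0.925, 0 and 11.5, and DUSP1 at 8.98, 26.3 and 52.9, each highest in replicate 3. JUN and JUNB were called lower (-1.51 and -1.55), and both calls ended without kidney replicate 1 or 2, among other alternatives. None of 11 tested mitochondrially encoded genes was called in kidney, where they summed to 3.98 to 26.6 FPKM per library, against up to 838 elsewhere.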
